A study of Mus musculus with 72 samples.

Results

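RNA of whole liver nuclei was compared between BALB/c and C57BL/6N mice that had received PBS and no tumour cells. The comparison took every whole liver library of a PBS animal, 16 of the 72 libraries of the series: 8 from BALB/c animals (4 of the C26 cohort and 4 of the NC26 cohort) and 8 from C57BL/6N animals (4 of the 8025 cohort and 4 of the MC38 cohort). A cohort is named after the tumour line whose PBS controls it holds. All 16 animals carried the same pair of alleles, CAG-Sun1/sfGFP and Albumin-Cre, with which hepatocytes express a fluorescent tag on the nuclear membrane, and all livers were taken at zeitgeber time 9 h. Age and sex are not given in the labels. The Y-linked gene Ddx3y had 1494 to 4396 counts in each of the 16 libraries, so that all 16 animals were male. C26 and 8025 libraries have one run of library numbers (here the first series) and NC26 and MC38 libraries a later one (the second series), so that each series holds 1 group of 4 animals of each strain. A strain difference was called only where it had the same direction in both series. Strain and colony cannot be told apart.

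The liver is made of hepatocytes and, between them, of cells that line, patrol and support the sinusoids. Sinusoidal endothelium forms the vessel wall, Kupffer cells are the resident macrophages, stellate cells store vitamin A and are the main producers of collagen, cholangiocytes line bile ducts, and blood lymphocytes, monocytes and dendritic cells pass through. BALB/c and C57BL/6 mice are known to differ in major histocompatibility haplotype and in many genes of innate immunity, and C57BL/6 mice carry a deletion that silences the class II gene H2-Ea.

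Total counts ran from 16133601 to 29858116 in BALB/c libraries and from 13233177 to 27968090 in C57BL/6N libraries, and levels are given as CPM, counts scaled to library size. Along the first principal component, which held 46.6% of the variance, a share of 0.928 was between strains. Replicate 1 of C26 PBS and replicate 1 of 8025 PBS stood apart along the second component (14.6%), and had the lowest shares of counts in 5 genes with rRNA-like reads (1.09% in C26 PBS 1 and 0.944% in 8025 PBS 1, against 2.20% to 7.33% in the other 14). For cell type and gene family lists, counts of called members are therefore also given without both where they moved, beside the list or in the section on processing. Markers of the labelled tissue were present: the endothelial scavenger receptor Stab2 averaged 530.0 ± 31.4 CPM in BALB/c and 471 ± 71.2 CPM in C57BL/6N animals (SD, n = 8 each). The Kupffer cell lectin Clec4f averaged 34.9 ± 5.37 CPM in BALB/c and 32.9 ± 4.74 CPM in C57BL/6N animals, and the stellate cell gene Reln 213 ± 28.8 CPM in BALB/c and 194 ± 31.4 CPM in C57BL/6N animals. None of these 3 passed the test used. The NK cell receptor Ncr1 (0.0981 to 0.412 CPM in BALB/c, 0.0712 to 1.28 CPM in C57BL/6N) and the neutrophil gene S100a8 (at most 0.0589 CPM in BALB/c and 0.0973 CPM in C57BL/6N) were too low to be tested. In such bulk libraries fewer cells of a type and less RNA per cell cannot be told apart.

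Of 13241 genes tested with the quasi-likelihood test of edgeR, 2369 were higher and 2711 lower in BALB/c animals at a Benjamini-Hochberg adjusted p under 0.05 with the same direction in both series, which is 17.9% and 20.5% of genes. The stricter rule, an adjusted p under 0.05 for the contrast of each series within the same fit of 16 libraries, left 674 higher (5.09%) and 831 lower (6.28%). That fit called 3403 genes in the first and 2236 in the second series; fitted alone, the first series called 809 higher and 1055 lower and the second 1720 and 1916. Without the 2 libraries that stood apart, the first rule called 3003 higher and 3072 lower, and 4837 of the 5080 calls were shared; the stricter rule called 1005 and 1294. For no gene did the strain difference differ between series by edgeR (1074 genes had an unadjusted p under 0.05, and DESeq2 called 39). Most differences were small: 501 genes were at least 2-fold higher and 531 at least 2-fold lower. Genes of cells other than hepatocytes were taken as those at least 2-fold higher in whole liver than in hepatocyte nuclei of the PBS animals, on average over both strains (2341 genes, 17.3% of 13567). Of these, 2245 entered the strain test, and 434 were higher (19.3%) and 431 lower (19.2%) in BALB/c animals, so that these genes as a whole were called about as often as all genes, and in both directions. Without the 2 libraries that stood apart, 474 non-hepatocyte genes were higher and 488 lower, so list counts of that setting stand against more calls in general. The plot of both series sets the log2 fold changes of non-hepatocyte genes side by side.

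**Figure D1:**
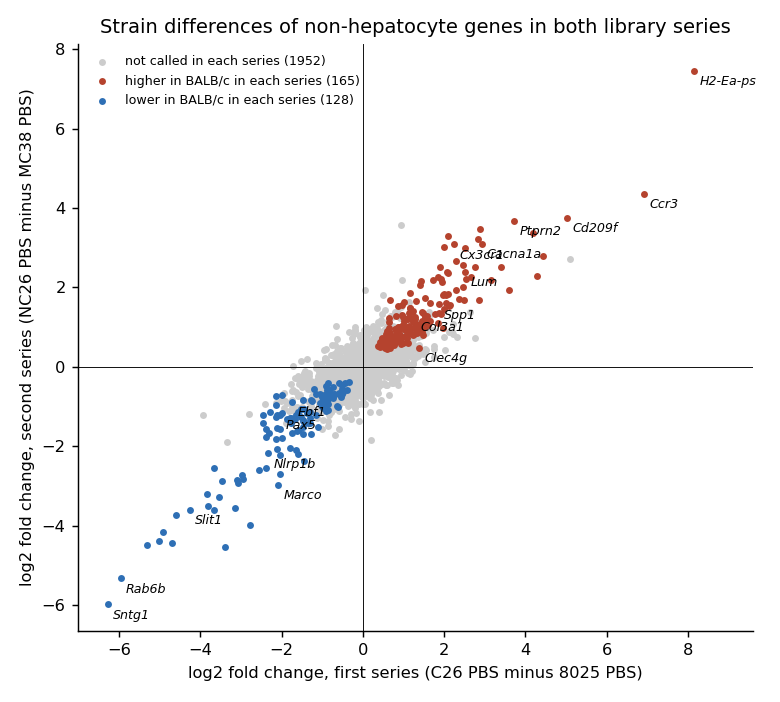
Each point is 1 of 2245 non-hepatocyte genes, with the log2 fold change of BALB/c over C57BL/6N PBS animals in the first library series on the x axis and in the second on the y axis. Red genes (165) were higher and blue genes (128) lower in BALB/c animals by the stricter rule, and they lie in the upper right and the lower left.

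Stellate cell and collagen genes were higher in BALB/c livers. The gene lists here and below were chosen with earlier results of these data known, so their shares against the background are description only. Of 26 stellate cell genes tested, 17 were higher and none lower (background 19.3% and 19.2% of non-hepatocyte genes), and 8 were higher in each series (background 7.35% higher and 5.70% lower). Their median on the log2 scale was 0.57, and that of all non-hepatocyte genes -0.01. Their summed level was 1198 ± 186 CPM in BALB/c and 809 ± 124 CPM in C57BL/6N animals (SD, n = 8 each), with overlapping ranges of 906 to 1427 CPM in BALB/c and 677 to 1049 CPM in C57BL/6N animals. The fibrillar collagen gene Col3a1 had 64.4, 62.6, 75.0 and 87.8 CPM in C26 PBS and 46.9, 34.2, 33.4 and 36.9 CPM in NC26 PBS animals, against 33.3, 25.1, 26.3 and 33.4 CPM in 8025 PBS and 15.2, 18.9, 13.8 and 15.2 CPM in MC38 PBS animals. Within each series every BALB/c animal was above every C57BL/6N animal, while the first series had the higher values in both strains. The log2 fold change of Col3a1 was 1.28 (SE 0.11, adjusted p = 1.39e-07), and 1.29 and 1.27 in the first and the second series.

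Other genes of collagen-producing cells were higher too. Lum, a small proteoglycan that organises collagen fibrils, had 2.46, 5.96 and 10.54 CPM (lowest, median and highest of 8) in BALB/c and 0.337, 0.866 and 2.54 CPM in C57BL/6N animals, a 5.48-fold difference (log2 2.45, SE 0.22, adjusted p = 2.22e-07), and the groups overlapped narrowly. Col1a1 and Col1a2, the chains of type I collagen, were 2.67-fold and 2.50-fold higher, the related proteoglycan gene Dcn 2.56-fold, and Pdgfra, a receptor for platelet-derived growth factor on fibroblasts, 2.03-fold (9.53 to 18.8 CPM in BALB/c, 5.12 to 7.17 CPM in C57BL/6N, no overlap). Smaller differences were seen in Des (intermediate filament desmin, 1.84-fold), Hgf (hepatocyte growth factor, 1.47-fold) and in the long genes Col14a1 (1.48-fold) and Ntm (1.53-fold). Among the 9 stellate cell genes not called, Lrat, which makes retinyl esters for storage, differed by 0.57 on the log2 scale (SE 0.23, adjusted p = 0.0598). Reln differed by 0.13 and Pdgfrb by 0.24. Gfap, at most 0.706 CPM in BALB/c and 0.391 CPM in C57BL/6N animals, was too low to be tested.

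The wider matrix list overlaps the stellate list in its fibrillar collagens. Of 44 matrix genes, 21 were higher and 4 lower (background 19.3% and 19.2% of non-hepatocyte genes), with a log2 median of 0.45. The gelatinase gene Mmp2 was 2.22-fold, the matricellular gene Thbs2 2.20-fold and the inhibitor of metalloproteinases Timp2 1.84-fold higher. Mmp2 had 2.26 to 5.95 CPM in BALB/c and 1.17 to 2.09 CPM in C57BL/6N animals, without overlap. Laminin and basement membrane genes went both ways: Lama2 (1.51-fold) and the entactin gene Nid1 (1.59-fold) were higher, and Lamc1 (log2 -0.49), Nid2 (-0.60), Col18a1 (-0.49) and Col5a3 (-1.13) were lower. All of these 4 lower genes were under the 2-fold enrichment in whole liver nuclei that marks non-hepatocyte genes. Without both libraries that stood apart, 18 stellate and 21 matrix genes were higher (of all non-hepatocyte genes 474, against 434 with all libraries). With the second series alone 11 stellate and 15 matrix genes were higher.

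**Figure D2:**
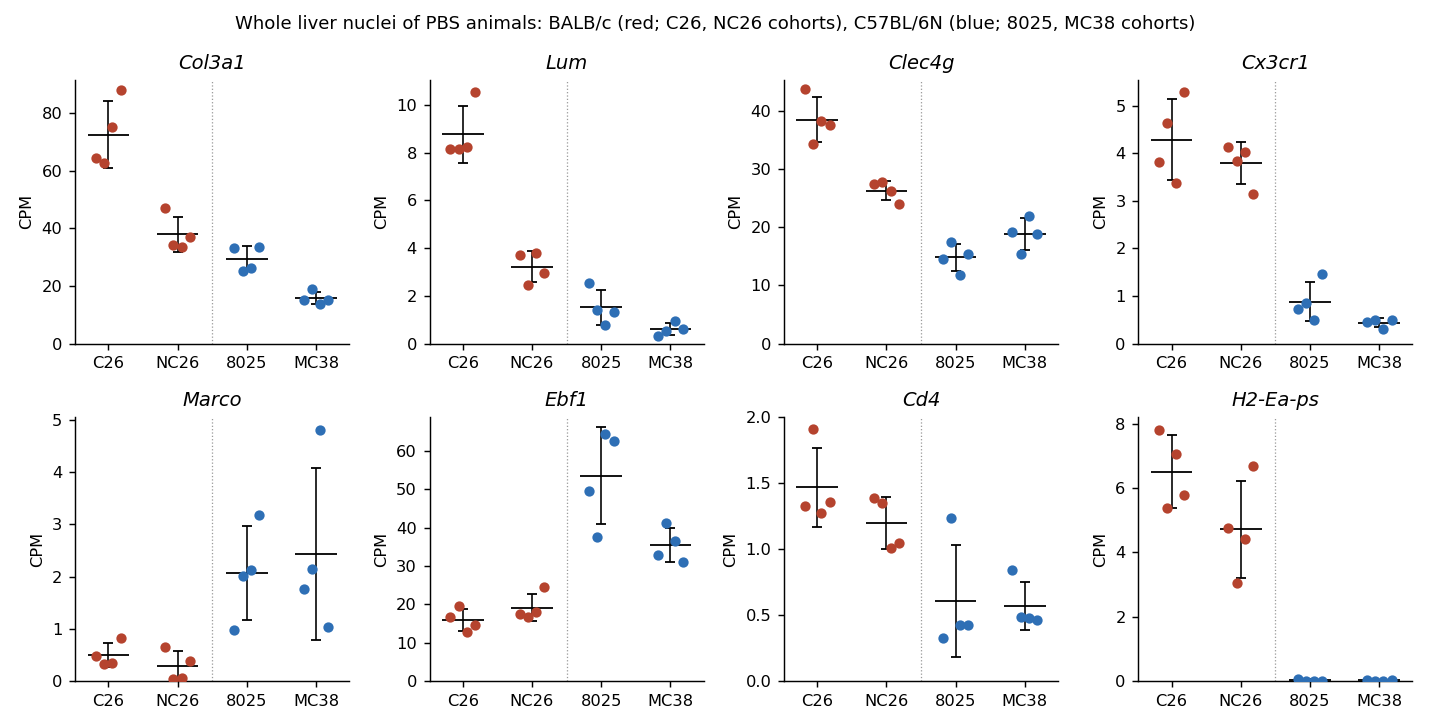
CPM (y axis, from 0) of 8 genes in each of the 16 libraries, with BALB/c cohorts in red (C26, NC26) and C57BL/6N cohorts in blue (8025, MC38); bars are means and whiskers SD of 4 animals. Col3a1, Lum, Clec4g, Cx3cr1, Cd4 and H2-Ea-ps have higher means in both BALB/c cohorts, and Marco and Ebf1 lower means.

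Gene length moved with strain in these libraries. Genes with a counted length of at most 3 kb (counts cover the whole gene span with introns) had a median log2 fold change of 0.26, and 27.1% of them were higher and 8.43% lower; for non-hepatocyte genes the median was 0.49 up to 3 kb (40 genes) and 0.17 from 3 to 10 kb (277 genes), and between -0.09 and 0.02 for longer ones. For all genes up to 3 kb the median was 0.40 in the first and 0.07 in the second series, and 0.24 without both libraries that stood apart. For the 40 non-hepatocyte genes of that length it was 0.73 in the first and 0.41 in the second series, and 0.50 without both. Among the 19 stellate cell genes of at least 10 kb, 12 were higher, with a median of 0.57, and among the 42 matrix genes of that length 21 were higher. The part of gene length in the other results was not tested beyond such counts.

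Endothelial genes were modestly higher in BALB/c livers. Of 27 sinusoidal endothelial genes, 11 were higher and none lower (background 19.3% and 19.2% of non-hepatocyte genes). Their log2 median was 0.23, and none reached 2-fold. Clec4g, a C-type lectin of sinusoidal endothelium, had 24, 31.0 and 43.7 CPM in BALB/c and 11.7, 16.4 and 21.9 CPM in C57BL/6N animals (log2 0.93, SE 0.09, adjusted p = 1.19e-06), and the groups did not overlap. Kdr, the main receptor for vascular endothelial growth factor, had 94.0 ± 11.8 CPM in BALB/c and 67.2 ± 6.12 CPM in C57BL/6N animals (SD, n = 8 each; log2 0.48, SE 0.07). Plvap, which builds the diaphragms of fenestrae (log2 0.86), and the secreted nuclease gene Dnase1l3 (0.75) passed in each series, as Clec4g did. The long endothelial genes Stab2 (0.17), Flt1 (-0.06) and Tek (0.12) did not pass, nor did the hyaluronan receptor gene Lyve1 (-0.36, with 0.40 in the first and -1.13 in the second series). Of the 25 endothelial genes of at least 10 kb, 9 were higher. Without both libraries that stood apart, 13 endothelial genes were higher and 1 lower (of all non-hepatocyte genes 474 and 488). With the second series alone 5 endothelial genes were called.

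Macrophage genes divided by gene. Of 21 Kupffer cell genes, 7 were higher and 4 lower (background 19.3% and 19.2% of non-hepatocyte genes), with a median log2 of 0.18. Their summed level was 1530 ± 299 CPM in BALB/c and 1445 ± 279 CPM in C57BL/6N animals (SD, n = 8 each). The complement gene C6 carried much of that sum, with 6972 to 41121 counts per library against 354 to 1043 for Clec4f. The sum therefore says little about the other members. Marco, a scavenger receptor for bacteria, was 5.78-fold lower in BALB/c animals: it had 0.483, 0.319, 0.343 and 0.824 CPM in C26 PBS and 0.659, 0.0337, 0.0630 and 0.389 CPM in NC26 PBS animals, against 0.978, 2.01, 2.12 and 3.17 CPM in 8025 PBS and 1.77, 2.14, 4.81 and 1.03 CPM in MC38 PBS animals (log2 -2.53, SE 0.43, adjusted p = 2.57e-04). The groups did not overlap, although both spread widely. Adgre1, which encodes the macrophage antigen F4/80, was also lower (log2 -0.48, SE 0.10), as were Cd5l (-0.36) and Mertk (-0.30). Spic, the transcription factor of iron-recycling macrophages, was 2.36-fold higher (SE of the log2 value 0.24, adjusted p = 7.74e-04), and the complement genes C1qa (1.11), C1qb (0.49) and C1qc (0.88), Fcna (0.83) and Hmox1 (0.72) were higher too. The 6 higher genes other than Mrc1 (0.31) are all under 10 kb long, the range in which non-hepatocyte genes as a whole had a positive median. Clec4f (0.08), Vsig4 (0.11), Timd4 (0.18) and Csf1r (0.08) did not pass.

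Chemokine receptor genes of monocytes and eosinophils were higher in BALB/c livers. Cx3cr1, the fractalkine receptor of patrolling monocytes and of some tissue macrophages, had 3.83, 4.63, 3.39 and 5.30 CPM in C26 PBS and 4.13, 3.84, 4.03 and 3.15 CPM in NC26 PBS animals, against 0.717, 0.852, 0.495 and 1.46 CPM in 8025 PBS and 0.464, 0.487, 0.304 and 0.498 CPM in MC38 PBS animals. The log2 fold change was 2.67 (SE 0.19, adjusted p = 1.94e-08), and the groups did not overlap. Ccr2, by which inflammatory monocytes follow chemokines, was 2.50-fold higher (log2 1.32, SE 0.20). Ccr3, the eotaxin receptor of eosinophils, had 1.92, 3.39 and 6.61 CPM in BALB/c animals and at most 0.285 CPM in C57BL/6N animals (615 and 12 counts in all; log2 5.63, SE 0.44, adjusted p = 4.97e-08). All 3 receptor genes lie on chromosome 9, with Ccr3 (mm10 chr9:124021971-124031689) close to Ccr2 (chr9:124102183-124109140). Ccr9 (0.06) and Cxcr6 (-0.02), which lie in the same stretch, did not pass. Other monocyte genes were mixed: Lyz2 was higher (0.92), Fgr lower (-0.87), and Itgam, Vcan and Plac8 did not pass. In all, 3 of 11 were higher and 1 lower (background 19.3% and 19.2% of non-hepatocyte genes).

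Among 24 chemokine and receptor genes, 9 were higher and 2 lower (background 19.3% and 19.2% of non-hepatocyte genes), with a median log2 of 0.27. Ccl24, an eotaxin that binds Ccr3, was 6.79-fold higher (0.539 to 1.71 CPM in BALB/c, 0 to 0.253 CPM in C57BL/6N), and the decoy receptor gene Ackr1 4.33-fold higher. Cxcl12, the stromal ligand that retains blood stem cells and lymphocytes, was higher by 0.60 on the log2 scale. Ccl27a was 34.1-fold lower (0.0778 to 0.412 CPM in BALB/c, 3.46 to 7.38 CPM in C57BL/6N); it overlaps Il11ra1 on the opposite strand and has near-identical copies, so its reads are uncertain as to their gene. Cxcr5, which guides B cells into follicles, was lower (-1.43, SE 0.35). Without both libraries that stood apart, 7 of 25 chemokine and receptor genes were higher and 3 lower (of all non-hepatocyte genes 474 and 488).

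**Figure D3:**
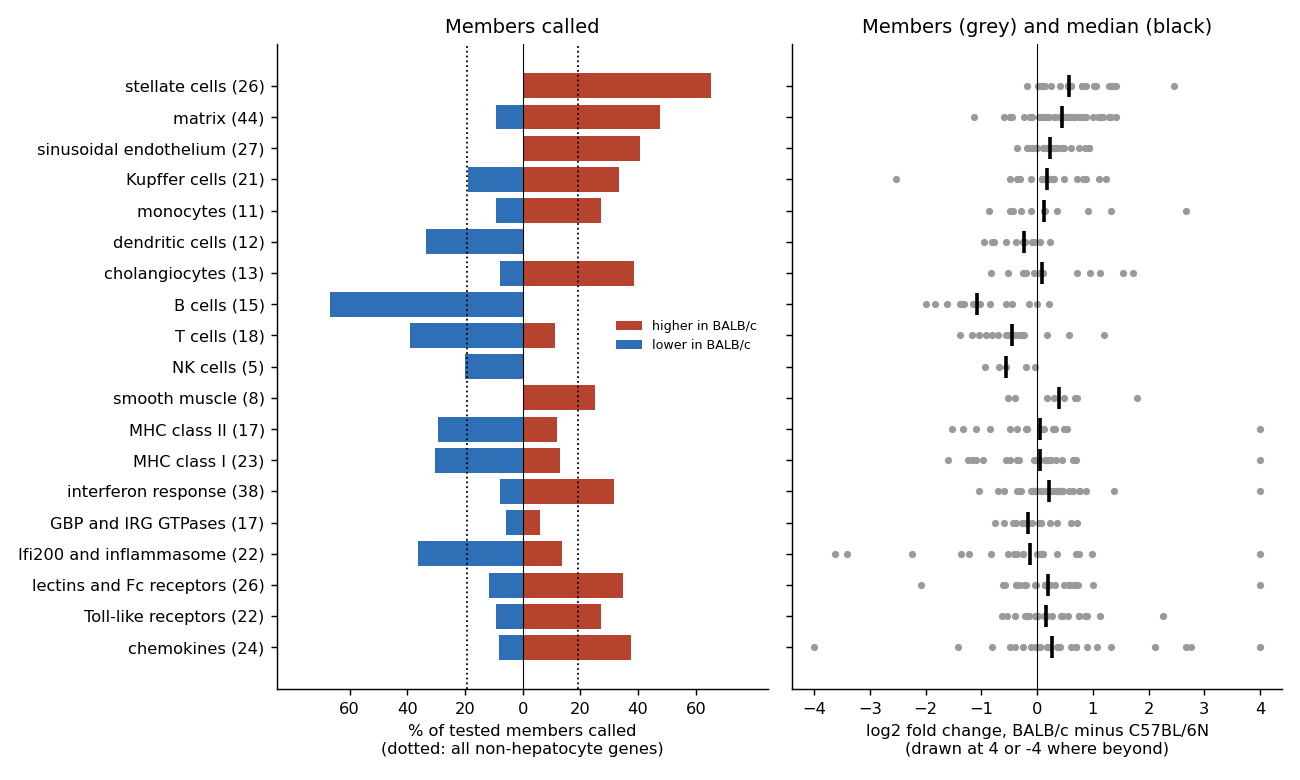
Left, the percentage of tested members (number in brackets) of each gene list called higher (red) or lower (blue) in BALB/c animals, with dotted lines at 19.3% and 19.2%, the shares of all non-hepatocyte genes. Right, the log2 fold change of each member (grey) and the list median (black); stellate and matrix genes lie to the right, and B cell, T cell and dendritic cell genes to the left.

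B cell genes were lower in BALB/c livers. Of 15 B cell genes, 10 were lower and none higher (background 19.2% and 19.3% of non-hepatocyte genes), with a log2 median of -1.08. Ebf1, a transcription factor that B cells need from their first steps, had 16.6, 19.7, 12.8 and 14.7 CPM in C26 PBS and 17.4, 16.6, 18 and 24.5 CPM in NC26 PBS animals, against 49.6, 37.5, 64.5 and 62.7 CPM in 8025 PBS and 32.8, 41.1, 36.5 and 31.2 CPM in MC38 PBS animals. It was 2.49-fold lower (log2 -1.32, SE 0.13, adjusted p = 7.90e-07), with no overlap. Pax5, which fixes B cell identity, had 2.22, 3.91 and 7.35 CPM in BALB/c and 9.73, 10.8 and 18.7 CPM in C57BL/6N animals (log2 -1.62, SE 0.21). The receptor chains Cd79a (log2 -1.08) and Cd79b (-1.37), the kinase gene Blk (-1.39), Fcrl1 (-1.83), Fcer2a (-1.15), Cd22 (-1.02) and Pou2af1 (-0.45) were also among the 10. Both abundant members of the list, Bank1 (72.4 and 64.3 CPM on average in BALB/c and in C57BL/6N) and Ralgps2 (119 and 118 CPM), did not pass, and as they carry most of the counts the summed level overlapped: 222 ± 34.7 CPM in BALB/c and 258 ± 56.2 CPM in C57BL/6N animals (SD, n = 8 each). Of the 11 B cell genes of at least 10 kb, 7 were lower, with a median of -1.02. Without both libraries that stood apart 10 B cell genes were lower and 1 higher (of all non-hepatocyte genes 488 and 474).

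T cell genes were lower more often than higher. Of 18, 7 were lower and 2 higher (background 19.2% and 19.3% of non-hepatocyte genes), with a median log2 of -0.44. Their summed level was 55.7 ± 10.9 CPM in BALB/c and 76.4 ± 16 CPM in C57BL/6N animals (SD, n = 8 each). Tcf7, the transcription factor of naive and memory T cells, was lower (1.49, 3.39 and 4.17 CPM in BALB/c, 3.13, 6.85 and 8.68 CPM in C57BL/6N; log2 -1.04, SE 0.18, adjusted p = 3.12e-04), though it was nearly as high in hepatocyte as in whole liver nuclei. Bcl11b (-1.17), Cd5 (-1.38), Cd2 (-0.92), Cd6 (-0.81), Lef1 (-0.55) and Skap1 (-0.39) were lower as well. The co-receptor gene Cd4 went the other way, with 1.01, 1.34 and 1.92 CPM in BALB/c and 0.326, 0.470 and 1.239 CPM in C57BL/6N animals (2.29-fold, SE of the log2 value 0.24), as did the costimulator gene Icos (0.57). Cd3e (-0.23) and Cd3g (-0.49), parts of the T cell receptor complex, did not pass. The second series alone called 1 T cell gene lower.

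Of 12 dendritic cell genes, 4 were lower: Batf3 (log2 -0.95) and Clec9a (-0.57), which mark the cross-presenting subset, Flt3 (-0.78), the receptor of their growth factor, and Zbtb46 (-0.25). None of them passed in each series, and 19.2% of all non-hepatocyte genes were lower. Of 5 NK cell genes, 1 was called, near the 19.2% of all non-hepatocyte genes that were lower: Tbx21 (-0.94, adjusted p = 0.0233), while Il2rb (-0.55, adjusted p = 0.131), Klrd1 (-0.69), Klrk1 (-0.19) and Txk (-0.04) did not pass. Of 9 genes of the natural killer complex, the C-type lectin gene Clec2h was called; it was 56.0-fold lower (0.0491 to 2.12 CPM in BALB/c, 10.6 to 73.4 CPM in C57BL/6N), and about as high in hepatocyte nuclei as in whole liver. Clec2d, a ligand of killer cell lectin receptors, did not pass (0.32, adjusted p = 0.0848). The Ly49 receptor genes of this complex, apart from Klra2 (-0.10) and Klra17 (0.45), were not tested.

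**Figure D4:**
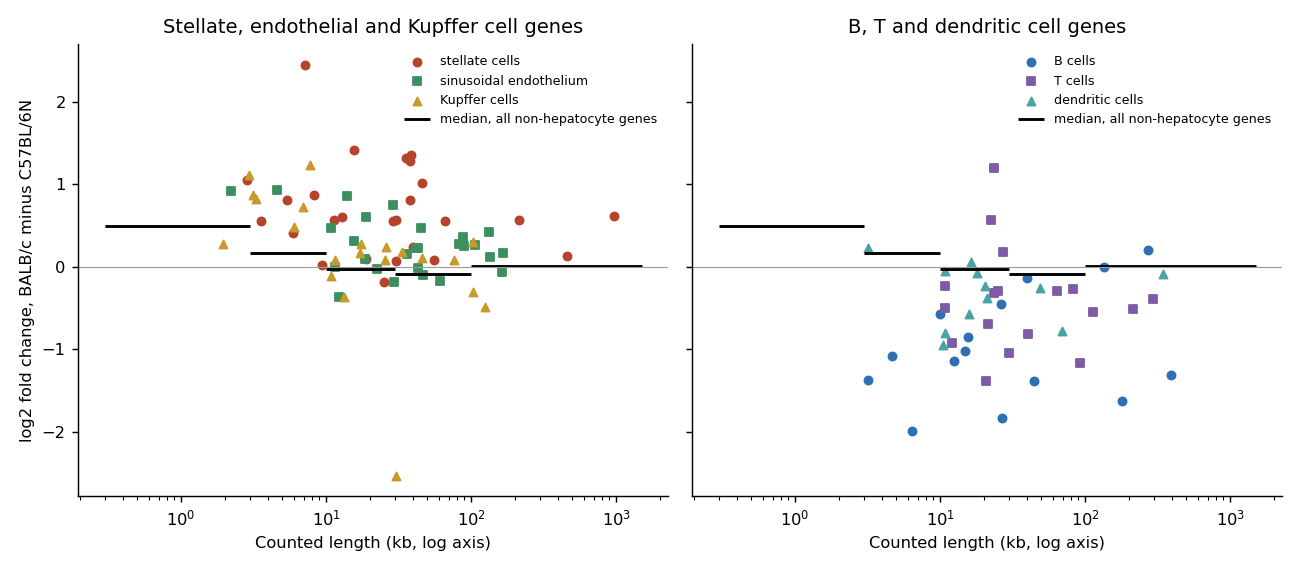
Log2 fold change of BALB/c over C57BL/6N (y axis) against counted gene length in kb (x axis, log scale) for the members of 6 cell type lists; black lines are medians of all non-hepatocyte genes in 5 length ranges. B cell genes other than Bank1 lie at or below the black line, and the higher Kupffer cell genes lie at the short end.

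Bile duct and smooth muscle genes showed single large differences. Only 3 of the 13 cholangiocyte genes tested met the rule for non-hepatocyte genes. Background shares were 17.9% higher and 20.5% lower over all genes tested, and 19.3% and 19.2% over non-hepatocyte genes. Of 13 cholangiocyte genes, 5 were higher: Spp1, the secreted matrix protein osteopontin, was 3.30-fold higher (6.69, 11.4 and 25.3 CPM in BALB/c, 1.80, 2.96 and 8.61 CPM in C57BL/6N; log2 1.72, SE 0.18), and the duct keratin gene Krt19 2.91-fold (0.404, 0.915 and 2.13 CPM in BALB/c, 0.173, 0.345 and 0.427 CPM in C57BL/6N). Muc1 (1.12), Epcam (0.96) and Krt7 (0.72) followed. Pkhd1, the gene of polycystic kidney and hepatic disease, was lower (103 to 161 CPM in BALB/c, 184 to 378 CPM in C57BL/6N, log2 -0.82, SE 0.14). As Pkhd1 holds a large share of the counts, the list's sum was lower (301 ± 22.5 CPM in BALB/c, 389 ± 69.5 CPM in C57BL/6N), while the list's median was 0.08. Of 8 smooth muscle genes, the calponin gene Cnn1 (1.79, SE 0.37) and Tagln (0.68, adjusted p = 0.0376) were higher, and Acta2 (0.71) and Myh11 (0.17) did not pass. Wt1 of the mesothelium (0.48, adjusted p = 0.0472) and Mzb1 of plasma cells (0.68, adjusted p = 0.0265) passed narrowly, and Msln (0.74) and Txndc5 (0.25) did not; Wt1, Mzb1 and Tagln lost their call when any of several single libraries was left out. Csf3r was the only neutrophil gene tested, and it did not differ beyond the spread (log2 -0.07, SE 0.16). The erythroid enzyme gene Alas2, which opens haem synthesis in red cell precursors, was 2.81-fold higher (43.3 to 73.8 CPM in BALB/c, 14.2 to 32 CPM in C57BL/6N), at a like level in hepatocyte nuclei, and Itga2b did not pass (-0.04).

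Antigen presentation genes differed at single loci. H2-Ea-ps, the class II alpha chain that C57BL/6 mice do not express, had 7.81, 5.37, 7.07 and 5.77 CPM in C26 PBS and 4.75, 3.03, 4.41 and 6.69 CPM in NC26 PBS animals. In C57BL/6N animals 3 counts were found in all 8 libraries, against 1006 in BALB/c animals, a ratio of 286 (95% exact Poisson interval 97.4 to 1387, counting error only). The strain labels thus matched the known H2-Ea difference in every library. Of 17 class II genes, 2 were higher (H2-Ea-ps and the protease gene Ctss, log2 0.53) and 5 lower: H2-Ob (-1.53), H2-DMb1 (-1.32), H2-DMb2 (-0.84) and H2-Eb1 (-0.49), which encode class II chains or peptide loaders, and the regulator gene Rfxank (-1.09). H2-Aa (0.10), H2-Ab1 (0.49), Cd74 (0.31) and the master regulator Ciita (-0.36) did not pass. Without both libraries that stood apart, 4 class II genes were higher and 5 lower (of all non-hepatocyte genes 474 and 488). In the main fit, 19.3% of all non-hepatocyte genes were higher and 19.2% lower.

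Class II promoters share a Y box, a CCAAT motif (searched as CCAAT and ATTGG, so on both strands) bound by nuclear factor Y. The 250 bases before the start of 3 of these genes are shown to compare a gene with no called difference (H2-Aa) with 2 lower ones. They are RefSeq sequences of build GRCm38.p6, the C57BL/6J reference, 5′ to 3′ on the gene's strand, with the motif in capitals.
H2-Aa, chr17:34287824-34288073, minus strand: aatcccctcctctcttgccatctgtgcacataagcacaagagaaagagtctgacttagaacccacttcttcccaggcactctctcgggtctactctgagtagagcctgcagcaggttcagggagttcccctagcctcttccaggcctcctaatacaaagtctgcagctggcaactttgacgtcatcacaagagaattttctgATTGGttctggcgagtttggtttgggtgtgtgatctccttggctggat
H2-Eb1, chr17:34305617-34305866, plus strand: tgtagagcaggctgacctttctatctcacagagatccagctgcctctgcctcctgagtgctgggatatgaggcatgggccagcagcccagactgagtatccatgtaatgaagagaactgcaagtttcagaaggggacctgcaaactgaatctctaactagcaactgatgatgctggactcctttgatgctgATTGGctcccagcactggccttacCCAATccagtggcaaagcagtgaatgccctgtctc
H2-DMb1, chr17:34152941-34153190, plus strand: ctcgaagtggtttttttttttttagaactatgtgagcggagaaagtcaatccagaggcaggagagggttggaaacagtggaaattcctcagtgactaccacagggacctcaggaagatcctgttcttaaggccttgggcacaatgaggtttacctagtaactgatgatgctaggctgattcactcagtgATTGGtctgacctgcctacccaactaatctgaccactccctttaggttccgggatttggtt
All 3 windows held the motif, as did 33.8% of the 32851 promoters of that length, so its presence did not separate H2-Aa from the lower genes in these letters. The BALB/c sequence was not used here.

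Class I genes differed in both directions. H2-K1, a classical chain, had 21.6, 24.6 and 29.2 CPM in BALB/c and 45.5, 77.5 and 90.4 CPM in C57BL/6N animals (log2 -1.59, SE 0.11, adjusted p = 1.55e-08). H2-D1, also a classical chain, had 9.93, 13.2 and 19.0 CPM in BALB/c and 6.39, 9.96 and 13.6 CPM in C57BL/6N animals (log2 0.44, adjusted p = 0.0132), but was not called, as the difference was 0.95 in the first and -0.07 in the second series. H2-Q4 (2.37-fold), H2-Q10 (-0.98), H2-Bl (-1.16), H2-T10 (-0.55) and the peptide trimming gene Erap1 (-0.32) were lower, as was Nlrc5, the transactivator of class I genes (43.6, 65.4 and 99.6 CPM in BALB/c, 117, 144 and 168 CPM in C57BL/6N; log2 -1.10, SE 0.11). H2-Q2 went the other way, with 1.58 to 3.14 CPM in BALB/c and 0 to 0.122 CPM in C57BL/6N animals, and B2m (0.64) and Mr1 (0.68) were higher. In all, 3 of 23 class I genes were higher and 7 lower (background 17.9% and 20.5% of all genes tested). The H2 genes among them are near-identical and differ in sequence between the strains. All reads were aligned to a C57BL/6J-derived build, so that reads of BALB/c alleles can be lost or given to another copy. How far this moved the values was not tested. Only 2 of the 23 genes were enriched in whole liver over hepatocyte nuclei, and in hepatocyte nuclei H2-K1 was lower by 2.47 on the log2 scale.

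Interferon-response genes were more often higher than lower in BALB/c animals. Of 38, 12 were higher and 3 lower (background 17.9% and 20.5% of all genes tested), with a log2 median of 0.21. The neighbours Ifi44 and Ifi44l stood out: Ifi44 had 3.88, 5.42 and 9.26 CPM in BALB/c and 1.90, 2.24 and 3.48 CPM in C57BL/6N animals (log2 1.38, SE 0.14, adjusted p = 1.36e-06), and Ifi44l had 1.80 to 4.04 CPM in BALB/c animals, against 2 counts in all C57BL/6N libraries together (491 in BALB/c; ratio 209, 95% exact Poisson interval 57.6 to 1731). The antiviral synthetase genes Oas1g (0.88) and Oas1a (0.76), the RNA sensor gene Ifih1 (0.47) and Parp9 (0.44) were higher in each series, while Oasl1 (-1.05), Helz2 (-0.70) and Trim30a (-0.59) were lower. Mx1 (-0.11), Ifit3 (-0.07) and Irf7 (0.37) did not pass. Only 10 of the 38 genes met the rule for non-hepatocyte genes. Of 17 interferon-inducible GTPase genes, Igtp was higher (0.61, adjusted p = 0.0180) and Gbp4 lower (-0.59, adjusted p = 0.00643), and the other 15 did not pass. The strain difference of Igtp was 0.05 in the first and 1.18 in the second series. Without both libraries that stood apart, none of the 17 was called higher, Igtp included, and 2 were lower (of all genes tested 3003 higher and 3072 lower).

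The promoters of Ifi44 and Ifi44l are shown because both genes were higher and lie next to each other. Capitals mark the interferon regulatory factor element AANNGAAA (searched also as TTTCNNTT for the other strand; matches may overlap), in the same RefSeq build and orientation.
Ifi44, chr3:151749911-151750160, minus strand: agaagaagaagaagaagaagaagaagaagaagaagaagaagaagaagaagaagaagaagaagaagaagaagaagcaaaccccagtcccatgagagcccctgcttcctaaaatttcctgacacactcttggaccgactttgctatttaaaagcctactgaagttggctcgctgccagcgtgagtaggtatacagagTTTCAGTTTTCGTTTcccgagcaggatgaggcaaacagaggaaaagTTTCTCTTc
Ifi44l, chr3:151762892-151763141, minus strand: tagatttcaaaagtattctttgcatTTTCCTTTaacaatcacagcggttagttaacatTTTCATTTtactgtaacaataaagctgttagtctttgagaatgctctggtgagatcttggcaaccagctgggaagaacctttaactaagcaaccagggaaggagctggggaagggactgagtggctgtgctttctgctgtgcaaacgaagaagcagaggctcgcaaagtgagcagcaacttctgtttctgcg
The Ifi44 window held 3 matches and the Ifi44l window 2, and 21.3% of all promoters held at least 1. The Ifi44 matches include a pair that overlaps within 55 bases of the start, and those of Ifi44l lie 185 or more bases before it.

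Cytosolic sensor genes of the Ifi200, Nlrp1 and Naip families were more often lower. Of 22 tested, 8 were lower and 3 higher (background 19.2% and 19.3% of non-hepatocyte genes), with a median log2 of -0.13. Nlrp1b, the sensor of anthrax lethal factor, had 2, 2.39 and 3.06 CPM in BALB/c and 9.39, 10.3 and 17 CPM in C57BL/6N animals (log2 -2.25, SE 0.14, adjusted p = 2.57e-09), its neighbour Nlrp1a was lower by 3.41, and the flagellin and needle protein sensors Naip1 (-3.63), Naip5 (-0.82) and Naip6 (-1.21) were lower, as was the cytokine gene Il18 (-0.41). Ifi202b, a DNA-binding protein of the Ifi200 family, had 5.72, 7.77 and 13.3 CPM in BALB/c animals and no count in any C57BL/6N library (1498 counts against 0), at least 425-fold higher with a floor of 3 counts over the group. In the same cluster on chromosome 1, Mnda (0.98) and Ifi203 (0.69) were higher, as was Pydc3 (2.66), which is not in the list, and Ifi204 (-1.36) and Pyhin1 (-0.52) lower. The members of these families share long stretches of sequence and vary in copy number between strains, so which copy the reads came from is uncertain. Aim2 (0.09), Nlrp3 (-0.25), Nlrc4 (0.08) and Casp1 (0.05), partners with a single copy, did not pass.

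Surface receptors of myeloid cells were more often higher than lower. Of 26 lectin and Fc receptor genes, 9 were higher and 3 lower (background 19.3% and 19.2% of non-hepatocyte genes), with a median log2 of 0.20. Cd209f was 20.9-fold higher (0.441 to 1.47 CPM in BALB/c, 0 to 0.142 CPM in C57BL/6N; 199 and 8 counts in all). The beta-glucan receptor gene Clec7a (0.99), sialoadhesin Siglec1 (0.58), Fcgr3 (0.73) and the Clec4a2, Clec4a3, Clec4b1 and Clec4n genes (0.58 to 0.69) were higher, as was the inhibitory Fc receptor gene Fcgr2b (0.32). Cd300lf (-0.58) and Cd300ld (-0.62) were lower, and Siglecg, an inhibitory receptor known from B cells, was lower (0.168, 0.245 and 0.692 CPM in BALB/c, 0.717, 1.26 and 2.32 CPM in C57BL/6N; log2 -2.08, SE 0.32). Of 22 Toll-like receptor genes and their partners, 6 were higher and 2 lower (background 17.9% and 20.5% of all genes tested). Tlr6, a partner of Tlr2 for lipopeptides, had 0.808, 1.12 and 2.29 CPM in BALB/c and 0.142, 0.278 and 0.387 CPM in C57BL/6N animals (log2 2.26, SE 0.27), and the endotoxin receptor Tlr4 (0.89), the nucleic acid sensors Tlr7 (0.76), Tlr8 (0.85) and Tlr13 (1.14), and Tlr1 (0.46) were higher. The Tlr4 co-receptor gene Ly96 (-0.54) and the inhibitor gene Irak3 (-0.62) were lower, and Tlr2 (0.12), Tlr3 (0.17) and Myd88 (0.15) did not pass. Without both libraries that stood apart, 9 of the 22 Toll-like receptor genes and partners were higher and 3 lower. Calls over all genes tested also rose there, from 2369 to 3003 higher and from 2711 to 3072 lower. Of the 26 lectin and Fc receptor genes, 8 were then higher and 4 lower (of all non-hepatocyte genes 474 and 488).

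The next genes are the 8 highest and 8 lowest non-hepatocyte genes that passed in each series without overlap at a mean of at least 2 CPM in the strain where they were higher, with pseudogenes and unnamed models passed over. The rule for non-hepatocyte genes averages both strains, and whether each gene meets it in each strain was not tested. The ratio of whole liver over hepatocyte nuclei differed between strains for Sntg1 (log2 -2.78), Slit1 (-2.21), Pnp2 (-3.005) and Trim30d (2.998). Sntg1, a syntrophin that links membrane proteins to the dystrophin complex, had 0.589, 0.873 and 1.45 CPM in BALB/c and 30.7, 58.6 and 112 CPM in C57BL/6N animals (log2 -6.13, SE 0.29, adjusted p = 1.17e-10). Cacna1a, a calcium channel subunit, had 53.2, 61.5 and 76.2 CPM in BALB/c and 6.00, 7.73 and 9.33 CPM in C57BL/6N animals (log2 3.01, SE 0.09, adjusted p = 5.69e-13). The groups of both genes lay far apart in each series. The other highest genes were Ptprn2 (log2 3.70), Neto1 (3.02), Pnp2 (2.76), Pydc3 and Mctp1 (2.51), beside Ccr3 and Cx3cr1; the other lowest were Rab6b (-5.64), Dscaml1 (-4.91), Cldn34c1 (-4.70), the axon guidance gene Slit1 (-3.93), Btbd11 (-3.52), Trim30d (-3.35) and Fam19a2 (-3.11). Mctp1 and Fam19a2 varied most within a strain: Mctp1 had 14.3 to 170 CPM in BALB/c and 5.90 to 13.8 CPM in C57BL/6N animals, and Fam19a2 3.43 to 6.86 CPM in BALB/c and 7.86 to 134 CPM in C57BL/6N animals. Groups of 8 did not overlap in 397 higher (3%) and 408 lower (3.08%) of all genes tested.

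With genes of hepatocytes included, the ends held Ifi202b, Ifi44l, the serpin gene Serpina3j and the major urinary protein gene Mup9 on the higher side. Serpina3j had 1.71 to 6.89 CPM in BALB/c animals and no count in C57BL/6N animals (at least 209-fold higher), and Mup9 had 31.2 to 98.3 CPM in BALB/c and 0 to 1.94 CPM in C57BL/6N animals; both belong to families of near-identical copies. On the lower side Trim12a had at most 0.0806 CPM in BALB/c and 15.7 to 29.9 CPM in C57BL/6N animals, and the olfactory receptor gene Olfr1033 0.277 to 0.673 CPM in BALB/c and 61.0 to 127 CPM in C57BL/6N animals. Cebpe had 1 count in BALB/c and 429 in C57BL/6N libraries (ratio of C57BL/6N over BALB/c 504, 95% exact Poisson interval 89.9 to 19946), and Guca1b 2 and 321 counts (188, interval 51.8 to 1563). Alb, the hepatocyte gene of serum albumin, did not differ beyond the spread (log2 0.10, SE 0.19).

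Whole liver nuclei include hepatocyte nuclei, so the strain difference was also set against that in bead-bound hepatocyte nuclei of the same animals. The strain differences in whole liver and in hepatocyte nuclei differed in 55 of 13567 genes (0.405%), and in 256 when the animal entered as a block, of which 54 were shared. Among the genes named here, Sntg1 (log2 -6.13 in whole liver, -3.35 in hepatocyte nuclei; adjusted p of the difference 0.00117) and Slit1 (-3.93 and -1.73; 0.00279) had the larger difference in whole liver. Trim30d (-3.35 and -6.35; 1.33e-08) and Pnp2 (2.76 and 5.76; 0.0104) had the larger difference in hepatocyte nuclei. Ifi44 was higher in whole liver (1.38) and not in hepatocyte nuclei (-0.25; adjusted p of the difference 0.00121). With the animal as a block, Fam19a2 (difference 2.61, adjusted p = 0.00228), Reln (0.61, adjusted p = 0.00802) and H2-K1 (0.87, adjusted p = 0.0451) were added. Levels in hepatocyte nuclei were 16.7% of those in whole liver for Col3a1, 15.7% for Stab2 and 14.1% for Ebf1, and the strain differences there had the sign of those in whole liver for Col3a1 (1.56), Lum (2.99), Kdr (0.80), Clec4g (1.07), Ebf1 (-0.91) and Pax5 (-1.56), but not for Reln (-0.48, against 0.13 in whole liver).

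**Figure D5:**
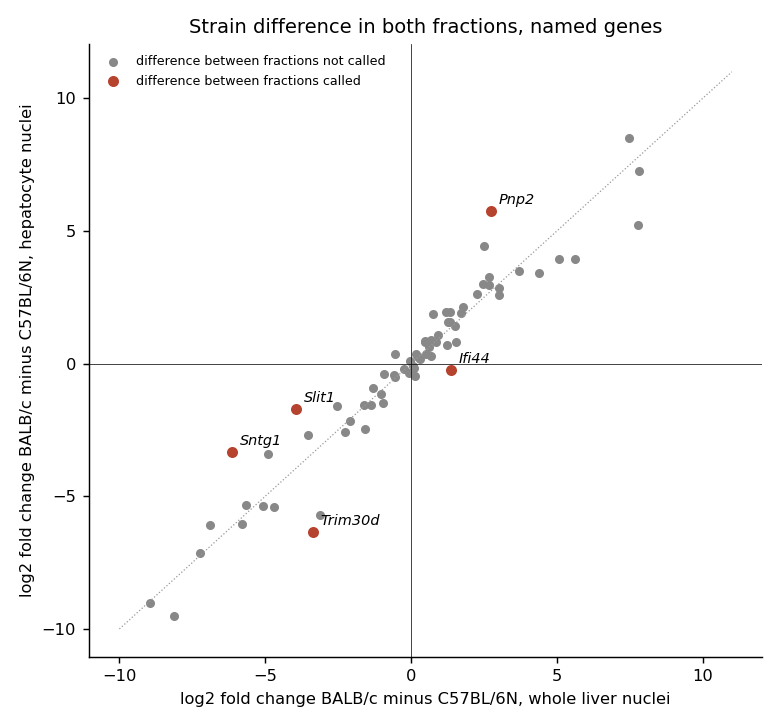
Log2 fold change of BALB/c over C57BL/6N PBS animals in whole liver nuclei (x axis) and in hepatocyte nuclei (y axis) for the named genes with counts in both strains; the dotted line marks equal values. The 5 red genes, Pnp2, Ifi44, Slit1, Sntg1 and Trim30d, had a called difference between the fractions.

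The same strains can be compared in animals of the second series that carried tumours labelled as weight-stable, NC26 tumours in BALB/c and MC38 tumours in C57BL/6N mice (4 animals each, none of them in the comparison above). There strain and tumour line cannot be told apart. Of the 1505 PBS differences called in each series, 1059 were called in the same direction and none in the opposite one, against 10.9% of 13738 genes called higher and 11% lower in these tumour animals. Of 26 stellate cell genes, 12 were higher and none lower in NC26 tumour livers, with Col3a1 at 1.498 and Lum at 2.23 on the log2 scale. Of the B cell genes 7 were lower and none higher (Ebf1 -0.88, adjusted p = 0.0101; Pax5 -0.83, adjusted p = 0.0896). Cx3cr1 (3.33), Ccr3 (6.84), Nlrp1b (-2.46) and Sntg1 (-6.87) passed as well. Marco (-0.99, adjusted p = 0.249) and Nlrc5 (-0.13, adjusted p = 0.620) did not, and of 27 endothelial genes 1 was higher and 2 lower.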

How the data were processed

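Nuclear RNA of whole liver was sequenced as 50 bp paired-end reads with a stranded kit and no poly(A) selection, per the labels' protocols. The submitters' processing notes name STAR 2.4.2a, DESeq2 1.24.0 and build mm10. The deposited values are raw counts per gene, which cover introns as well as exons of a gene, per the file headers; strand use in counting is not given in the sources used here. Reads of both strains were aligned to a C57BL/6J-derived build, and what sequence or copy number differences did to the counts was not tested.

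The 16 libraries (4 groups of 4) were fitted with edgeR 4.0.16 in R 4.3.3, with TMM factors, filterByExpr by group, a mean per group and the quasi-likelihood test; 13241 of 20105 genes were tested, and 3017 had no count in these libraries. A call needed a Benjamini-Hochberg adjusted p under 0.05 and the same sign in both series. Standard errors are the log2 fold change over the square root of F. Non-hepatocyte genes came from a joint fit of 32 libraries. Animals have their own identifiers in the labels, and both libraries of an animal correlated at a median of 0.495 (-0.21 to 0.65) in their deviations from group means, so the joint fit was also run with the animal as a block. All 24 replicate pairs differed beyond sampling noise (chi-square per degree of freedom 23.1 to 183). The fit was checked on simulated data.

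Named genes were the 8 highest and 8 lowest described in the text, the 2 smallest p of each list, the 4 highest and 4 lowest with hepatocyte genes included, and label checks; further list members are named as counted examples, chosen after their values were seen. Members and lists were chosen with earlier results of these data known. Alternatives were other normalizations and filters, DESeq2 1.42.0, a replicate block, single series and leaving out libraries. Lists of hepatocyte, sex-biased, clock, early response, cell cycle and acute phase genes served as checks. Values of some list members are not reported here. Intervals and floors cover counting error only.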

Additional observations from a re-analysis of the deposited data

Results flagged for a closer look

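Within the groups of 4 animals, 40 of 356 group values (11.2%) held 1 animal far from the other 3, by Dixon's criterion for the gap to the nearest other animal. For normally distributed values chance gives about 1 in 20 groups. Where 3 libraries of a group have no count, any count in the other meets the criterion. Cebpe in NC26 PBS, Guca1b in C26 PBS and NC26 PBS, and H2-Ea-ps in 8025 PBS rest on 1 count each, and Ccr3 in 8025 PBS on 2. Values are CPM of the animal that stood apart. Replicate 1 of C26 PBS had 6.61 for Ccr3 and 0.403 for Il2rb. Replicate 2 of C26 PBS had 1.92 for Cd4, 553 for Clec2d, 0.0532 for Guca1b, 14.5 for Neto1 and 70.3 for the summed T cell list. Replicate 3 of C26 PBS had 214 for the summed B cell list. Replicate 4 of C26 PBS had 0.412 for Ccl27a and 10.54 for Lum. Replicate 1 of NC26 PBS had 0.0347 for Cebpe, 3.88 for Ifi44 and 0.0693 for Rab6b. Replicate 2 of NC26 PBS had 8.35 for Ctss and 0.0337 for Guca1b. Replicate 4 of NC26 PBS had 15.1 for Gbp4, 7.35 for Pax5, 0.583 for Siglecg and 41.3 for the summed mesothelial list. Replicate 1 of 8025 PBS had 0.13 for Ccr3, 4.17 for Cldn34c1, 0.0652 for H2-Ea-ps, 127 for Olfr1033, 579 for the summed dendritic cell list and 549 for the summed cholangiocyte list. Replicate 2 of 8025 PBS had 0.774 for Ccr2 and 1.239 for Cd4. Replicate 4 of 8025 PBS had 3.66 for Cebpe, 8.54 for Dscaml1 and 22.3 for Gbp4. Replicate 1 of MC38 PBS had 0.843 for Cd4, 1.94 for Mup9 and 14.2 for Pax5. Replicate 2 of MC38 PBS had 19.9 for Alas2, 68.8 for Fam19a2, 410 for Stab2, 2.97 for Tagln and 42.3 for the summed smooth muscle list. Replicate 4 of MC38 PBS had 12.7 for Nlrp1b and 3.49% of counts in the genes with rRNA-like reads.

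The strain difference itself differed between whole liver and hepatocyte nuclei in 5 named genes, by the interaction test of edgeR. The difference in whole liver minus that in hepatocyte nuclei was 1.63 for Ifi44, -3.005 for Pnp2, -2.21 for Slit1, -2.78 for Sntg1 and 2.998 for Trim30d on the log2 scale. All 5 were also called with the animal as a block.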

How the results depend on the processing

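Most results kept their direction and their side of the p threshold, whatever the direction in each series: of 1998 values of 72 named genes under the alternatives, 44 lost an adjusted p under 0.05 (in 10 genes, among them Wt1, Tagln, Mzb1 and Tbx21), 8 gained it and 12 changed sign, all above that p. The sign changes were Alb -0.0512, Cd3e 0.137, Clec4f -0.0660, Csf3r 0.00716 and Itga2b 0.0734 with the second series alone. With 1 library left out, Alb ranged from -0.00120 to 0.209, Cd3e from -0.374 to 0.0388, Csf3r from -0.165 to 0.00725 and Itga2b from -0.0844 to 0.0393. The cause was not tested. With the first series alone 809 genes were higher and 1055 lower, 193 and 173 of them non-hepatocyte, with 6 B cell genes lower and 103 list members called. With the second series alone 260 non-hepatocyte genes were lower, and 11 stellate, 5 endothelial (higher) and 1 T cell gene (lower) were called. A minimum of 2-fold left 501 higher and 531 lower, 342 and 372 in each series, 146 and 127 non-hepatocyte, 7 stellate, 8 matrix, 0 endothelial and 3 T cell genes, and 66 list members. DESeq2 called 39 differences between series, and the animal as a replicate block 256 between fractions. Without replicate 1 of C26 PBS and of 8025 PBS together, 1294 genes were lower in each series and 3555 were called in the second. In that setting 3003 of all genes were higher and 3072 lower, and 474 and 488 of the non-hepatocyte genes. There 8 Kupffer cell genes were higher and 3 lower, 5 dendritic cell genes lower, and 2 smooth muscle genes higher and 2 lower. Class I genes moved to 4 higher and 8 lower, interferon-response genes to 13 and 4, and Ifi200 family and inflammasome genes to 3 and 9. Of the natural killer complex 1 gene was higher and 1 lower, 2 mesothelial genes were higher, and no plasma cell gene was called. Without 8025 PBS replicate 1 alone, 1271 were lower in each series and 5173 were called in the first.

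Leaving out 1 library at a time gave 2164 to 3067 genes higher and 2405 to 3261 lower, 523 to 982 higher and 620 to 1271 lower in each series, 2512 to 5173 called in the first and 1578 to 3151 in the second series. Replicate numbers did not pair the strains: same-numbered libraries correlated at -0.26 to 0.47, 5 of 16 best with their own number, and with the number as a replicate block 2428 genes were higher and 2695 lower. Upper-quartile factors moved the median log2 fold change of all genes to 0.03. Genes with few counts, such as Ncr1 and S100a8, could not be tested at this depth, and nothing in the labels shows whether animals of a group shared a litter.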

Other observations

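Neighbouring members of gene families differed in opposite directions; these clusters were chosen after their values were seen. In the Trim cluster of chromosome 7, Trim6 (log2 2.23), Trim12c (0.71) and Trim34b (5.21) were higher in BALB/c animals, and Trim34a (-1.25), Trim5 (-5.05), Trim12a (-8.96), Trim30a (-0.59) and Trim30d (-3.35) were lower. In the Ifi200 cluster of chromosome 1, Pydc4 (-3.66) was lower and Pydc3 (2.66) higher. The reads of such near-identical copies are uncertain as to their gene, and how far alignment to a C57BL/6J-derived build moved these values was not tested.

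Of the check lists, 7 of 16 male-biased genes were higher and 3 lower, and 2 of 11 female-biased genes were higher and 2 lower. Of 20 clock genes 3 were higher and 8 lower, of 19 early response genes 4 and 5, of 24 cell cycle genes 1 and 6, and of 27 acute phase genes 6 and 4. Of 18 hepatocyte genes 5 were higher and 2 lower. Over all 13241 genes tested, 17.9% were higher and 20.5% lower.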
